A study of Mus musculus with 10 samples.

Results

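The 34 genes described here are transcriptional targets and close regulators of the tumor suppressor p53. They were chosen by symbol from general knowledge of the pathway, with earlier results of these data known. All 34 were found among the 54152 lines of a gene expression table of mouse oviduct organoids. All 34 also passed the filter on low values that left 15817 genes for testing, and each had at least 1 FPKM (fragments divided by exon length in kilobases and by library size) in every library. Organoids are cultured epithelial structures, and these were grown from the isthmus of the oviduct to ask what loss of the small GTPase Cdc42 does to oviduct epithelium. The table holds 10 libraries in 6 groups. AdKO_Diff and AdKO_Con have 1 library each and are Cdc42 flox/flox organoids that were infected in culture with an adenovirus carrying Cre (Ad-Cre), driven by a viral promoter that is active in most cells. PgrKO_Diff and PgrKO_Con have 2 libraries each and are organoids of mice whose floxed Cdc42 was recombined by Pgr-Cre, a Cre knocked in at the progesterone receptor gene. F/F_Diff and F/F_Con have 2 libraries each and came from Cdc42 flox/flox mice without Cre. The genotype labels of the F/F libraries do not all name Cdc42, and all were taken as Cdc42 flox/flox, as the study describes them. Diff organoids were differentiated for 6 days with 10 nM estradiol (E2) and 1 μM DBZ, which blocks Notch signaling through γ-secretase, and Con organoids were not. Animal ages for the organoids are not given in the sources used here. The F/F libraries are not labelled as infected with any virus, so infection, Cre and loss of Cdc42 cannot be told apart in AdKO organoids. No label says whether replicate libraries came from separate animals, so the spread behind the p-values is that of these libraries alone and may be technical.

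p53 is a transcription factor that cells keep at a low level because Mdm2, a ubiquitin ligase and itself a p53 target, marks it for degradation. Damage to DNA and other stresses stabilize the protein, which then binds pairs of short p53 half-sites near its targets and raises genes that stop the cell cycle, start apoptosis, repair DNA or adjust metabolism. The activity of p53 is set mainly on the protein, which RNA sequencing does not measure. In the oviduct epithelium the pathway is best known because the human gene is commonly mutated in serous carcinomas that arise in the fallopian tube.

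The promoter windows are shown first because they hold the short motif that p53 binds. RefSeq windows (build GRCm38.p6) from 250 bases before to 50 bases after each annotated start were matched for 26 of the 34 genes, and both strands were searched for the 10-base p53 half-site, which reads the same on both strands. At least 1 half-site stood in the windows of 11 of these 26 genes, or 42.3%, against 9.55% of 27025 genes with a window and 8.51% of the 10877 tested genes with one. Pairs of half-sites with a gap of 0 to 13 bases were present in 1 of the 26, Cdkn1a, and in 20 of the 27025. A match describes the letters of the window and does not show that p53 binds there. The stretches of 80 bases below are from the genes that rose in AdKO organoids and have a match, and from Cdkn1a, which was added after its values were seen because it holds the pair. Half-sites are in capitals. Only exact matches are marked, so near matches, such as the 10 bases right after the second half-site of Cdkn1a, are in lower case.
Ccng1: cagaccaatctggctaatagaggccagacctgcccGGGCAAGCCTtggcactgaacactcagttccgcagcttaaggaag
Bax: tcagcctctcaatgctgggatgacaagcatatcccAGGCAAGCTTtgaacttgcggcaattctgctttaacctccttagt
Aen: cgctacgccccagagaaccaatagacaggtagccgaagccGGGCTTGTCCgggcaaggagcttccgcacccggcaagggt
Ckap2: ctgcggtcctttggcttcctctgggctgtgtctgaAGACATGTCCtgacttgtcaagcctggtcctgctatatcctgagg
Cdkn1a: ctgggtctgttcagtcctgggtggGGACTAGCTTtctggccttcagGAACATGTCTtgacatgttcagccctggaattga
The stretches lie at chr11:40755427-40755506 on the minus strand for Ccng1, chr7:45467055-45467134 on the minus strand for Bax, chr7:78895897-78895976 on the plus strand for Aen, chr8:22185978-22186057 on the minus strand for Ckap2 and chr17:29090882-29090961 on the plus strand for Cdkn1a. The other genes with a match were Trp53, Mdm2, Gadd45a, Ei24, Sesn1 and Polk. Of the genes that rose in AdKO organoids, Btg2 had a window without a match. The genes not matched to a window were Perp, Tnfrsf10b, Rrm2b, Xpc, Trp53inp1, Zmat3, Pmaip1 and Ddb2.

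**Figure D1:**
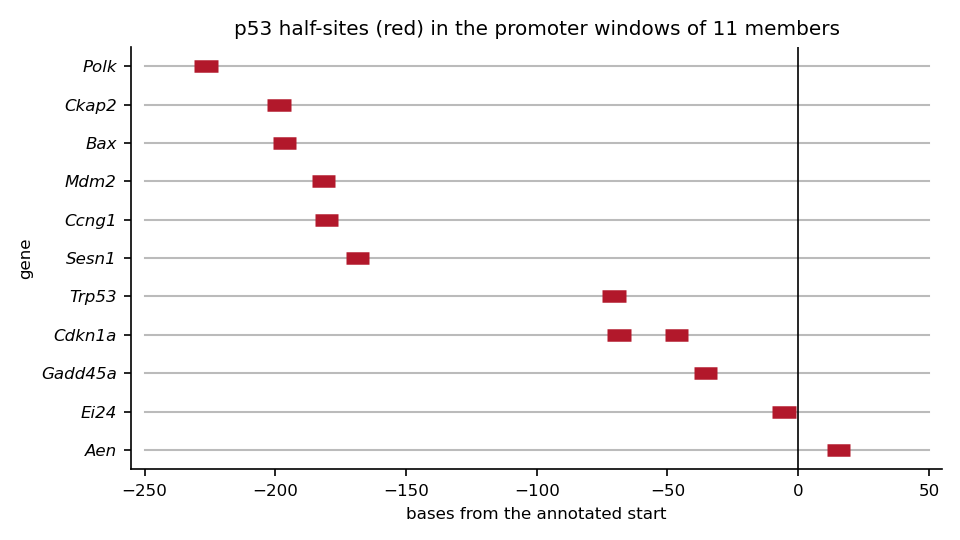
Positions of p53 half-sites (red bars, 10 bases long) in the promoter windows of 11 genes, in bases from the annotated start (vertical line), with the searched window in gray. Cdkn1a is the one gene with 2 half-sites, whose first bases are 73 and 51 bases before the start, and the half-site of Aen begins 11 bases into the transcript.

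The libraries held 11744271 to 17330672 reads, and the 34 genes were represented by 34 to 7216 reads per library. Cdc42 itself was at 87.9 FPKM in AdKO_Diff and 81.6 FPKM in AdKO_Con, below all 8 other libraries, which were at 104 to 134 FPKM. In PgrKO against F/F organoids its log2 fold change was −0.03 in PgrKO_Diff (limma adjusted p = 0.904) and −0.26 in PgrKO_Con (limma adjusted p = 0.362). Its deleted exon is a small part of the gene model, so the level checks the labels only in part. Epithelial markers were at 1 FPKM or more in every library, with all 6 of 6 detected and a summed level of 1688 to 3049 FPKM. The 3 markers of secretory and ciliated oviduct cells (Ovgp1, Pax8 and Foxj1) summed to 418 FPKM in AdKO_Diff and 178 FPKM in AdKO_Con, to 3458 and 1921 FPKM in PgrKO_Diff and 2243 and 1157 FPKM in PgrKO_Con, and to 1840 and 4375 FPKM in F/F_Diff and 255 and 330 FPKM in F/F_Con. The sum joins markers of 2 cell types, and the 3 markers did not move together. By limma, 2 of the 3 rose and 1 fell in F/F_Diff against F/F_Con. In PgrKO_Diff against F/F_Diff 1 fell and 0 rose, so the sum does not follow either cell type alone. The part of these markers in the differences described below was not tested. Markers of cell types outside the epithelium differed as well. The 9 fibroblast markers summed to 3.91 and 11.8 FPKM in the AdKO libraries, to 142 to 422 FPKM in PgrKO libraries and to 7.99 to 64.3 FPKM in F/F libraries. The 9 leukocyte and macrophage markers summed to 175 and 203 FPKM in AdKO, 331 to 1338 FPKM in PgrKO and 71.4 to 207 FPKM in F/F libraries. PgrKO_Diff replicate 2 and PgrKO_Con replicate 2 were the highest of these, at 1338 and 994 FPKM. The 6 endothelial markers summed to 0.498 and 2.86 FPKM in AdKO, 9.86 to 37.2 FPKM in PgrKO and 0.242 to 1.54 FPKM in F/F libraries. Of the 9 fibroblast markers, 8 were under 1 FPKM in each AdKO library and 4 to 8 in F/F libraries, against 0 or 1 in PgrKO. Of the 9 leukocyte and macrophage markers, 5 or 6 were under 1 FPKM in AdKO and 6 in each F/F library, against 0 to 4 in PgrKO. The AdKO and F/F sums therefore came from a part of each list. In these bulk libraries fewer cells of a type and less RNA per cell cannot be told apart.

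For a view over all of them, each gene was standardized over the 10 libraries on the log2(FPKM + 1) scale and the values were averaged over the 34 genes. The mean was 0.45 in AdKO_Diff and 0.47 in AdKO_Con. It was −0.36 and −0.18 in the PgrKO_Diff libraries, −0.30 and −0.02 in PgrKO_Con, −0.36 and −0.43 in F/F_Diff, and 0.08 and 0.63 in F/F_Con. The AdKO pair was therefore above 7 of the 8 other libraries, and F/F_Con replicate 2 was above both. F/F_Con replicate 2 also held the highest level of 10 genes, and its replicate held that of 1, so the 2 libraries of this group differed from each other. The lowest level was in an F/F_Diff library for 16 genes (6 in replicate 1 and 10 in replicate 2).

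**Figure D2:**
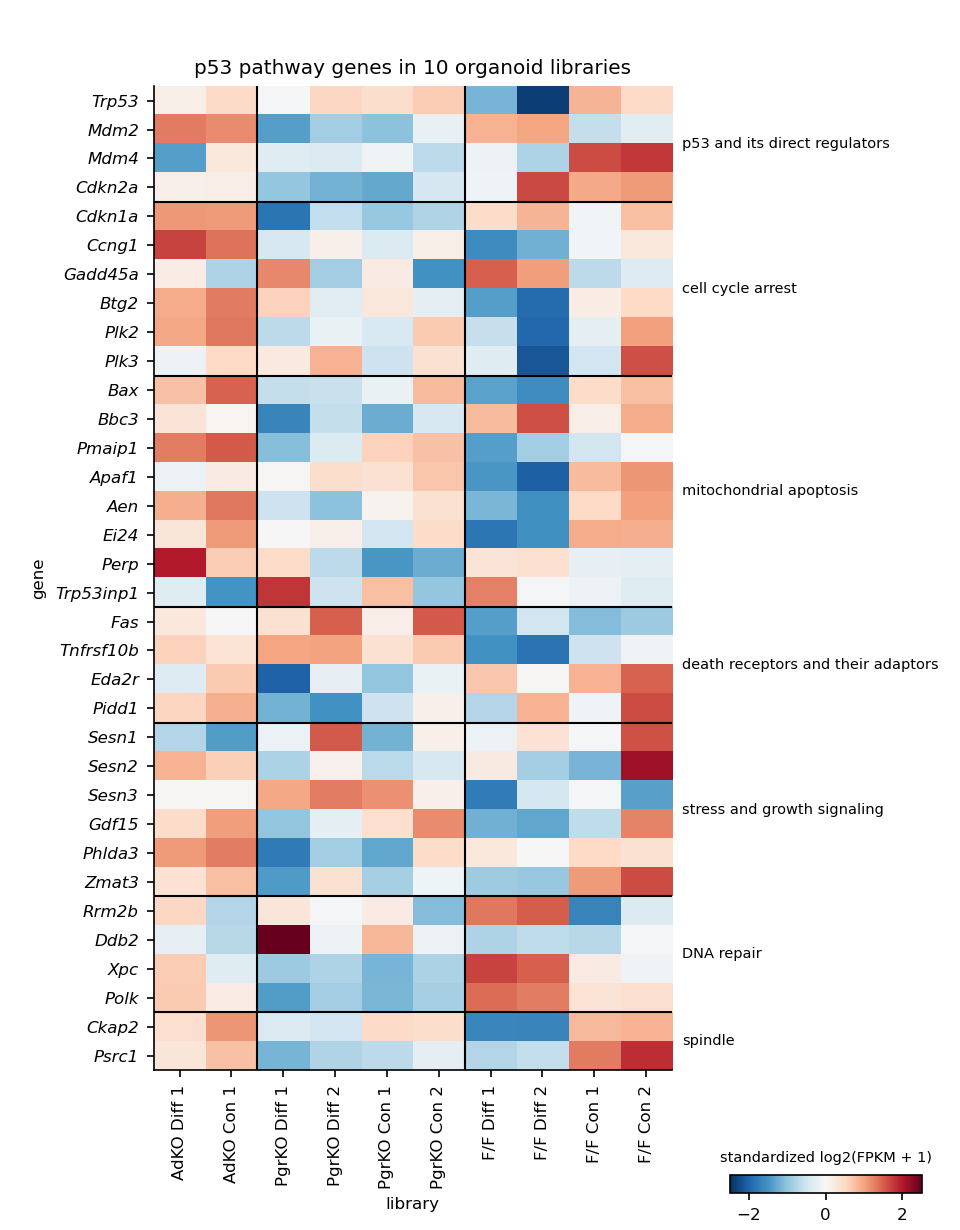
Standardized log2(FPKM + 1) of the 34 genes (rows, by role) in 10 libraries (columns), red for above and blue for below the gene's mean over the libraries. Ccng1, Btg2, Pmaip1, Cdkn1a, Mdm2, Perp and Phlda3 were highest in the AdKO columns, and most genes were blue in F/F_Diff.

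The first question was whether the genes stand differently in organoids whose Cdc42 was deleted by Ad-Cre. Over the mean of both states, 7 of the 34 genes rose in AdKO against F/F organoids and none fell (limma, Benjamini-Hochberg adjusted p under 0.05), or 20.6% and 0%, while 4.59% of all tested genes rose and 5.92% fell (10.5% in either direction). The genes that rose were Ccng1, Btg2, Bax, Pmaip1, Aen, Tnfrsf10b and Ckap2. Aen passed under 4 and Bax under 7 of the 16 alternatives that were run, and the others under 10 or 11. The median log2 fold change was 0.29 over the 34 genes and −0.02 over all tested genes. Without any 1 of the F/F libraries (F/F_Con replicate 1, F/F_Con replicate 2, F/F_Diff replicate 1 or F/F_Diff replicate 2) none of the 34 passed, and 9 to 24 of all tested genes did. These fits have 3 residual degrees of freedom in place of 4. All of the 7 genes but Pmaip1 also fell in F/F_Diff against F/F_Con, and none of the 7 passed in AdKO_Con against F/F_Con (both given below).

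The test treats a single AdKO library in each state as varying like the other groups, so the levels are given next to it. Both AdKO libraries were above all 8 other libraries for 7 of the 34 genes (20.6%), and below all 8 for none. Among all tested genes 4.52% were above and 4.82% below in this way. The 7 were Mdm2, Cdkn1a, Ccng1, Btg2, Pmaip1, Perp and Phlda3, of which Ccng1, Btg2 and Pmaip1 also passed the test. Against the F/F libraries alone, 10 of the 34 were above all 4 (16.8% of all tested genes) and 2, Trp53inp1 and Sesn1, were below all 4 (14.4%).

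Of the 6 genes that act on the cell cycle, 2 rose in AdKO organoids. Ccng1, which encodes cyclin G1 and lies on chromosome 11 from 40748552 to 40755311, had the highest level of the 34 genes in both AdKO libraries. It was at 173 FPKM in AdKO_Diff and 155 FPKM in AdKO_Con, against 56.0 and 64.0 FPKM in F/F_Diff and 94.9 and 106 FPKM in F/F_Con. The log2 fold change was 1.07 (standard error 0.15, limma adjusted p = 0.0247). No other library passed 106 FPKM, so the AdKO levels did not overlap with any group.

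Btg2, an antiproliferative gene that acts in mRNA deadenylation, lies on chromosome 1 from 134075170 to 134079120. It was at 96.5 FPKM in AdKO_Diff and 119 FPKM in AdKO_Con, against 26.5 and 19.2 FPKM in F/F_Diff and 63.8 and 75.8 FPKM in F/F_Con (log2 fold change 1.41, standard error 0.25, limma adjusted p = 0.0321). The PgrKO libraries were at 79.5 and 49.0 FPKM in PgrKO_Diff and 67.6 and 50.8 FPKM in PgrKO_Con, above F/F_Diff and overlapping with F/F_Con.

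Cdkn1a, the p21 inhibitor of cyclin-dependent kinases and the best known p53 target, lies on chromosome 17 from 29090976 to 29100727. Its levels were 95.3 FPKM in AdKO_Diff and 94.3 FPKM in AdKO_Con, against 74.5 and 86.5 FPKM in F/F_Diff and 60.2 and 83.6 FPKM in F/F_Con. The groups did not overlap, but the log2 fold change of 0.33 (standard error 0.23) did not pass the test (limma adjusted p = 0.391). Plk2, a polo-like kinase, was at 40.4 and 49.7 FPKM in AdKO_Diff and AdKO_Con, against 6.62 to 41.5 FPKM in F/F libraries, with log2 fold change 1.32 and adjusted p = 0.118 from limma. The F/F libraries were spread widely for this gene, and F/F_Con replicate 2 was above AdKO_Diff. Plk3, a related kinase, and Gadd45a, a stress-induced inhibitor of cell cycle progression, overlapped as well. Plk3 was at 7.57 and 10.7 FPKM in the AdKO libraries against 2.14 to 19.4 FPKM in F/F, and Gadd45a was at 71.2 and 48.1 FPKM against 50.5 to 123 FPKM.

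Of the 8 genes grouped here with mitochondrial apoptosis, not all of which act at the mitochondrion, 3 rose in AdKO organoids. Pmaip1 encodes NOXA, a BH3-only protein that opposes the anti-apoptotic protein MCL1, and lies on chromosome 18 from 66458533 to 66465565. It was at 38.6 FPKM in AdKO_Diff and 43.7 FPKM in AdKO_Con, against 9.86 and 12.9 FPKM in F/F_Diff and 16.01 and 19.9 FPKM in F/F_Con. The log2 fold change of 1.47 (standard error 0.19, limma adjusted p = 0.0236) was the largest of those that passed among the 34. The nearest other library was PgrKO_Con replicate 2, at 29.4 FPKM.

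Bax, which permeabilizes the outer mitochondrial membrane, lies on chromosome 7 from 45461697 to 45466898. It was at 43.4 FPKM in AdKO_Diff and 56.3 FPKM in AdKO_Con, against 20.9 and 19.3 FPKM in F/F_Diff and 39.5 and 43.7 FPKM in F/F_Con (log2 fold change 0.75, standard error 0.15, limma adjusted p = 0.0371). AdKO_Diff and F/F_Con overlapped, and the larger separation was from F/F_Diff. Aen, an exonuclease that degrades DNA in apoptosis (chromosome 7, 78895854 to 78911209), had the same pattern. Its levels were 14.1 and 15.8 FPKM in AdKO_Diff and AdKO_Con, against 7.85 and 6.97 FPKM in F/F_Diff and 12.6 and 14.7 FPKM in F/F_Con (log2 fold change 0.53, standard error 0.12, limma adjusted p = 0.0455). Perp, a membrane protein of desmosomes, was at 99.5 FPKM in AdKO_Diff and 66.8 FPKM in AdKO_Con, against 61.0 and 62.7 FPKM in F/F_Diff and 52.2 and 51.6 FPKM in F/F_Con. The groups did not overlap, and the log2 fold change of 0.52 had a limma adjusted p of 0.0756.

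The other apoptosis genes did not pass. Bbc3, which encodes PUMA, was at 11.8 and 10.3 FPKM in AdKO_Diff and AdKO_Con against 10.9 to 22.5 FPKM in F/F libraries, so this close relative of Pmaip1 had a log2 fold change of −0.46 (limma adjusted p = 0.362). Apaf1, the core of the apoptosome, was at 4.57 and 5.16 FPKM against 2.25 to 6.94 FPKM. Ei24, a membrane protein of the endoplasmic reticulum, was at 24.5 and 27.7 FPKM against 17.3 to 27.1 FPKM. All 3 overlapped between the groups. Trp53inp1, a stress-induced regulator of p53, was at 36.4 and 30.0 FPKM in AdKO_Diff and AdKO_Con and at 36.4 to 47.1 FPKM in F/F, with a log2 fold change of −0.25 and adjusted p = 0.441 from limma.

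Tnfrsf10b was the death receptor gene that rose in AdKO organoids. It encodes the mouse receptor for the death ligand TRAIL and lies on chromosome 14 from 69767472 to 69784411. It was at 13.2 FPKM in AdKO_Diff and 11.95 FPKM in AdKO_Con, against 5.12 and 4.35 FPKM in F/F_Diff and 8.17 and 9.86 FPKM in F/F_Con, with log2 fold change 0.84 (standard error 0.12, limma adjusted p = 0.0256). PgrKO libraries were at 12.2 to 15.97 FPKM and overlapped with AdKO. Fas, the receptor of Fas ligand, was low in all libraries, at 2.70 and 2.41 FPKM in AdKO_Diff and AdKO_Con and 1.13 to 1.88 FPKM in F/F (limma adjusted p = 0.233). Eda2r, a receptor of ectodysplasin A2, was at 6.76 and 10.6 FPKM against 8.00 to 15.04 FPKM, and Pidd1, an adaptor of caspase-2, at 5.29 and 6.32 FPKM against 2.57 to 9.19 FPKM. Neither of these 2 passed, and both overlapped.

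None of the 6 stress and growth signaling genes and none of the 4 DNA repair genes passed in AdKO against F/F organoids. Phlda3, an inhibitor of Akt, was nevertheless higher in both AdKO libraries than in any other, at 62.5 FPKM in AdKO_Diff and 68.3 FPKM in AdKO_Con, against 40.2 to 49.7 FPKM in F/F (log2 fold change 0.52, limma adjusted p = 0.305). Gdf15, a secreted stress cytokine, had the largest log2 fold change of the 34 genes, at 1.48, and also the largest standard error, at 0.65. It was at 45.6 FPKM in AdKO_Diff and 75.2 FPKM in AdKO_Con, against 10.7 and 9.62 FPKM in F/F_Diff and 17.7 and 88.5 FPKM in F/F_Con, so the difference was within the spread of F/F_Con. The sestrins, which restrain mTORC1, did not move together. Sesn1 was at 6.02 and 4.63 FPKM in AdKO_Diff and AdKO_Con against 7.47 to 14.0 FPKM in F/F, Sesn2 at 14.7 and 13.6 FPKM against 8.22 to 20.7 FPKM, and Sesn3 at 12.1 and 12.2 FPKM against 6.10 to 11.8 FPKM. Zmat3, an RNA-binding zinc finger protein, was at 12.3 and 14.2 FPKM against 7.47 to 19.5 FPKM.

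The repair genes were close to F/F levels. Rrm2b, a ribonucleotide reductase subunit, was at 4.19 and 3.05 FPKM in AdKO_Diff and AdKO_Con against 2.36 to 5.33 FPKM in F/F. Ddb2 and Xpc, which recognize damage in nucleotide excision repair, were at 6.73 and 5.50 FPKM against 5.35 to 7.12 FPKM, and at 8.67 and 7.04 FPKM against 7.39 to 10.9 FPKM. Polk, a translesion DNA polymerase, was at 10.3 and 8.35 FPKM against 8.97 to 14.4 FPKM. All 4 overlapped between AdKO and F/F.

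Of the spindle genes, Ckap2 rose and Psrc1 did not pass. Ckap2, a microtubule-associated protein of mitosis (chromosome 8, 22168160 to 22185819), was at 7.98 FPKM in AdKO_Diff and 11.6 FPKM in AdKO_Con, against 2.19 and 2.17 FPKM in F/F_Diff and 9.92 and 10.2 FPKM in F/F_Con (log2 fold change 0.85, standard error 0.10, limma adjusted p = 0.0191). AdKO_Diff was below both F/F_Con libraries, and the difference came with the low level in F/F_Diff. Psrc1, another spindle protein, was at 15.4 and 21.04 FPKM in AdKO_Diff and AdKO_Con, within the range of 6.91 to 47.2 FPKM in F/F.

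p53 itself and its regulators did not pass in this comparison. Trp53 (chromosome 11, 69580359 to 69591873) was at 29.8 FPKM in AdKO_Diff and 33.9 FPKM in AdKO_Con, against 18.1 and 11.3 FPKM in F/F_Diff and 39.1 and 33.8 FPKM in F/F_Con (log2 fold change 0.45, limma adjusted p = 0.189). Mdm2 (chromosome 10, 117688875 to 117710758) was at 41.0 and 39.6 FPKM in AdKO_Diff and AdKO_Con, against 36.8 and 37.8 FPKM in F/F_Diff and 25.3 and 27.4 FPKM in F/F_Con (log2 fold change 0.35, limma adjusted p = 0.117). Mdm2 was thus above every other library, by a small margin over F/F_Diff. Mdm4, a relative of Mdm2 that inhibits p53, was at 10.6 and 14.2 FPKM against 11.8 to 18.5 FPKM in F/F. Cdkn2a, whose locus encodes the p16 inhibitor and the ARF protein that blocks Mdm2, was at 11.2 and 11.6 FPKM against 9.57 to 29.8 FPKM, and 1 value per gene does not separate these products.

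**Figure D3:**
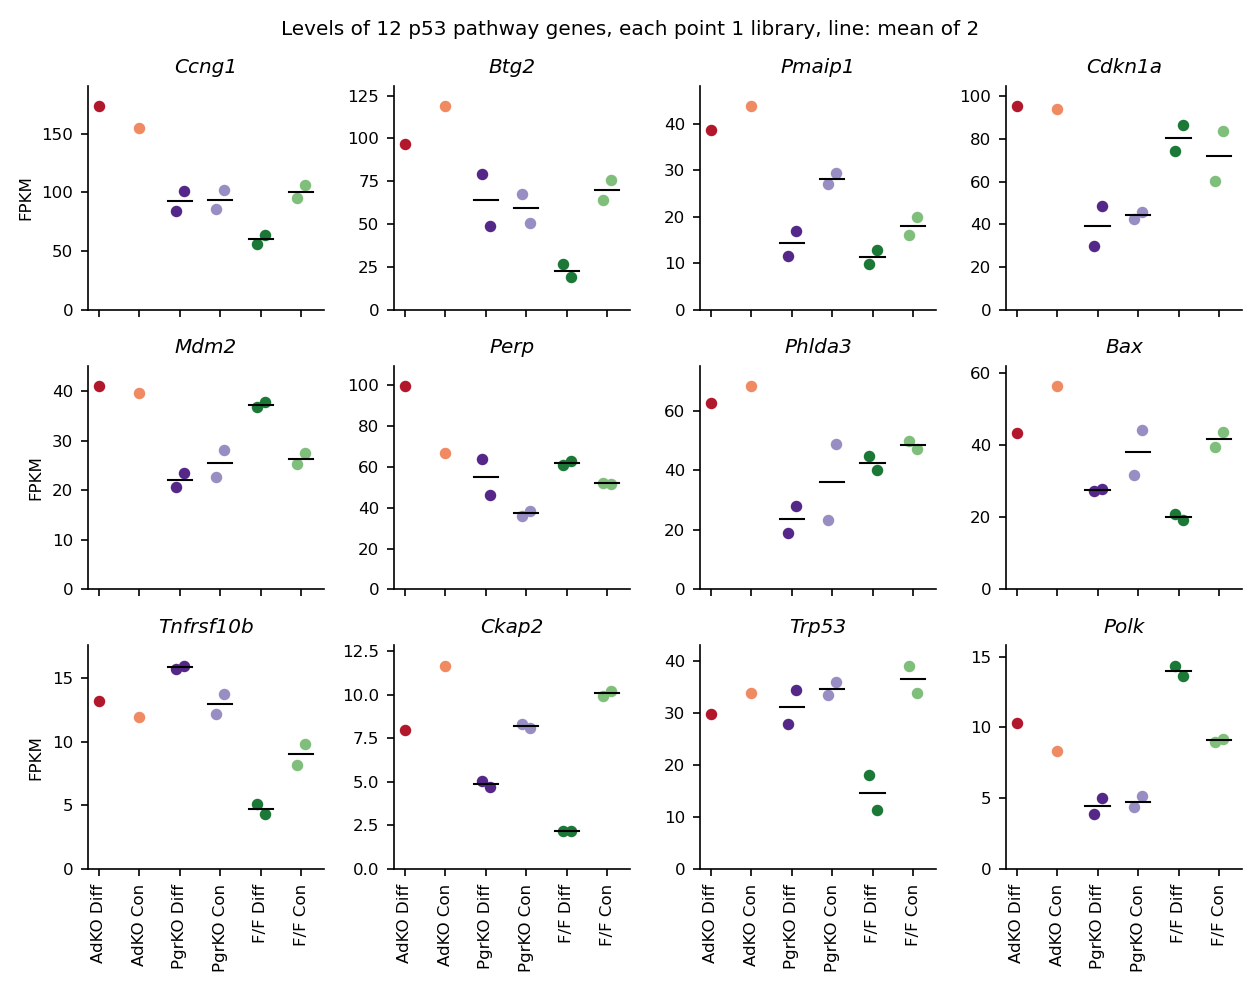
FPKM of 12 genes (linear axes that start at 0) in each library by group, with 1 point per library and a line at the mean of 2 libraries. In the first 7 panels, Ccng1 to Phlda3, both AdKO libraries are above all 8 others, and Bax, Tnfrsf10b, Ckap2 and Trp53 are lowest in F/F_Diff.

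The states were then compared one at a time. In AdKO_Diff against F/F_Diff the same 7 genes rose and none of the 34 fell, while 1.73% of all tested genes rose and 4.43% fell (6.16% in either direction). The log2 fold changes ran from 0.85 for Aen (limma adjusted p = 0.0443) to 2.05 for Btg2 (limma adjusted p = 0.0368), and the median over the 34 genes was 0.55, against 0.00 over all tested genes. Only 1 passed when either F/F_Con replicate 1 or F/F_Con replicate 2 was left out, and 0 when F/F_Diff replicate 1 or F/F_Diff replicate 2 was. The count was also 0 with voom on the recovered reads and with only the groups compared, and 1 with a pseudocount of 0.1. In AdKO_Con against F/F_Con none of the 34 passed, by limma on FPKM or on recovered reads (voom). An unadjusted p under 0.05 was found for 5 of the 34 and for 2572 of the 15817 tested genes, so this share was near the background. There 8 of all tested genes (0.0506%) passed, 0.0253% higher and 0.0253% lower. The median over the 34 genes was 0.06, and the log2 fold changes ran from −1.03 for Sesn1 and −0.85 for Psrc1 to 0.90 for Gdf15 and 1.24 for Pmaip1 (standard error 0.27, limma adjusted p = 0.13). The difference between these comparisons was not tested.

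**Figure D4:**
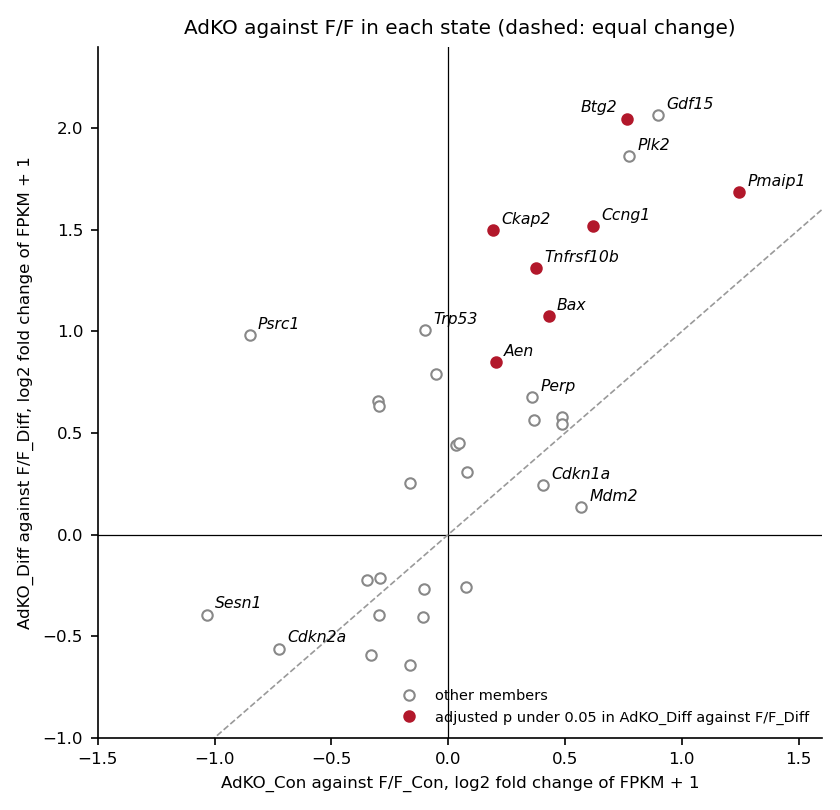
Log2 fold change of FPKM + 1 in AdKO_Con against F/F_Con (horizontal) and in AdKO_Diff against F/F_Diff (vertical) for the 34 genes, with equal change on the dashed line. The 7 genes that passed in AdKO_Diff against F/F_Diff (red) are above the dashed line, while Mdm2 and Cdkn1a are below it.

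Side by side, the 2 AdKO libraries differed little for most of these genes. AdKO_Diff was above AdKO_Con for 15 of the 34 genes, and the differences on the log2(FPKM + 1) scale ran from −0.71 for Gdf15 to 0.57 for Perp. Gadd45a was 0.56 higher and Ckap2 was at −0.49. With 1 library in each group these differences have no replicate check.

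The AdKO organoids were next compared with PgrKO organoids, in which Cdc42 was targeted through another Cre. Over both states, 2 of the 34 genes rose in AdKO against PgrKO and none fell, while 0.923% of all tested genes rose and 1.14% fell (2.06% in either direction). Mdm2 was at 41.0 and 39.6 FPKM in AdKO_Diff and AdKO_Con, against 20.7 and 23.6 FPKM in PgrKO_Diff and 22.7 and 28.2 FPKM in PgrKO_Con (log2 fold change 0.75, standard error 0.12, limma adjusted p = 0.0475). Polk was at 10.3 and 8.35 FPKM in AdKO_Diff and AdKO_Con, against 3.88 and 5.03 FPKM in PgrKO_Diff and 4.40 and 5.14 FPKM in PgrKO_Con (log2 fold change 0.88, standard error 0.13, limma adjusted p = 0.0351). Neither gene overlapped between AdKO and PgrKO.

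Levels were above all 4 PgrKO libraries in both AdKO libraries for 16 of the 34 genes (47.1%, against 14.4% of all tested genes) and below all 4 for Sesn3 and Ddb2 (5.88%, against 16.6%). Cdkn1a was among the 16, at 95.3 and 94.3 FPKM in AdKO_Diff and AdKO_Con against 29.9 to 48.4 FPKM in PgrKO (log2 fold change 1.19, standard error 0.23, limma adjusted p = 0.0664). Phlda3, at 62.5 and 68.3 FPKM against 19.1 to 48.7 FPKM, had a log2 fold change of 1.19 as well and an adjusted p of 0.108 from limma. The median log2 fold change over the 34 genes was 0.53, against 0.01 over all tested genes. The fibroblast, leukocyte and endothelial marker sums given above were higher in PgrKO than in AdKO, and their part in these differences was not tested. None of the 34 passed without F/F_Con replicate 1, F/F_Con replicate 2, F/F_Diff replicate 1, F/F_Diff replicate 2, PgrKO_Con replicate 1 or PgrKO_Con replicate 2, or without both PgrKO replicate 2 libraries, which have the most leukocyte marker RNA. With PgrKO_Diff replicate 1 or PgrKO_Diff replicate 2 left out, Polk still passed and Mdm2 did not.

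In PgrKO against F/F organoids the genes moved both ways, and 12 passed in differentiated organoids and 1 in undifferentiated ones. The difference between the 2 effects is the PgrKO response minus the F/F response, which passed for 2 genes and is given further on. In PgrKO_Diff against F/F_Diff 7 of the 34 genes rose (20.6%) and 5 fell (14.7%), while 11.7% of all tested genes rose and 15.4% fell (27.1% in either direction), so the share that fell was near the background. Trp53, Ccng1, Btg2, Apaf1, Tnfrsf10b, Sesn3 and Ckap2 rose, and Mdm2, Cdkn1a, Bbc3, Xpc and Polk fell. Tnfrsf10b was at 15.7 and 15.97 FPKM in PgrKO_Diff against 5.12 and 4.35 FPKM in F/F_Diff (log2 fold change 1.56, standard error 0.14, limma adjusted p = 0.00288). Trp53 was at 27.8 and 34.5 FPKM against 18.1 and 11.3 FPKM (log2 fold change 1.06, standard error 0.23, limma adjusted p = 0.0216). Apaf1, at 4.83 and 5.57 FPKM against 2.83 and 2.25 FPKM, rose by 0.81 (limma adjusted p = 0.0131).

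The genes that fell include Mdm2, through which p53 limits itself, and the cell cycle inhibitor Cdkn1a. Cdkn1a was at 29.9 and 48.4 FPKM in PgrKO_Diff against 74.5 and 86.5 FPKM in F/F_Diff (log2 fold change −1.06, standard error 0.27, limma adjusted p = 0.0336). Mdm2 was at 20.7 and 23.6 FPKM against 36.8 and 37.8 FPKM (log2 fold change −0.73, standard error 0.14, limma adjusted p = 0.0153). Bbc3 was at 4.08 and 7.35 FPKM against 14.97 and 22.5 FPKM (log2 fold change −1.57, standard error 0.36, limma adjusted p = 0.0242). None of these 3 genes overlapped between the groups, and each was lower in PgrKO_Diff while Trp53 was higher. Polk, at 3.88 and 5.03 FPKM against 14.4 and 13.7 FPKM (log2 fold change −1.47, standard error 0.15, limma adjusted p = 0.00322), and Xpc, at 6.14 and 6.32 FPKM against 10.9 and 10.4 FPKM, were the repair genes that fell. The other repair genes did not pass, with log2 fold changes of −0.37 for Rrm2b and 0.94 for Ddb2. Cdkn2a was at 5.30 and 4.51 FPKM against 9.57 and 29.8 FPKM and did not pass (log2 fold change −1.61, limma adjusted p = 0.062).

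Fibroblast markers summed to 142 and 422 FPKM in PgrKO_Diff against 50.3 and 64.3 FPKM in F/F_Diff, and leukocyte markers to 357 and 1338 FPKM against 186 and 71.4 FPKM. In the F/F_Diff libraries 6 and 8 of the 9 fibroblast markers were under 1 FPKM, and 6 of the 9 leukocyte markers in each. The part of these markers in the changes above was not tested directly. Without both PgrKO replicate 2 libraries 8 of the 34 genes passed, with 14.3% of all tested genes, and without F/F_Diff replicate 1 the count was also 8, with 17.2%. Without F/F_Diff replicate 2 the count was 4 and 11% of all tested genes passed, so the share of the 34 was near the background there. Ckap2, Tnfrsf10b and Polk passed under all 17 alternatives that were run for this comparison.

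In PgrKO_Con against F/F_Con 1 of the 34 genes passed, against 0.62% of all tested genes (0.354% lower and 0.266% higher). Psrc1 fell, at 7.33 and 10.2 FPKM in PgrKO_Con against 31.7 and 47.2 FPKM in F/F_Con (log2 fold change −2.04, standard error 0.26, limma adjusted p = 0.048). It did not pass when any 1 library was left out, PgrKO_Diff and F/F_Diff libraries included. Over both states, all 4 PgrKO libraries were below all 4 F/F libraries for 6 of the 34 genes, Cdkn2a, Cdkn1a, Bbc3, Eda2r, Xpc and Polk (17.6%, against 10.3% of all tested genes), and above for Fas, Tnfrsf10b and Sesn3 (8.82%, against 13%). Fas was at 2.86 and 4.64 FPKM in PgrKO_Diff and 2.59 and 4.71 FPKM in PgrKO_Con, where the higher value in each pair is replicate 2, the library with more leukocyte marker RNA. The part of those cells in Fas levels was not tested.

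**Figure D5:**
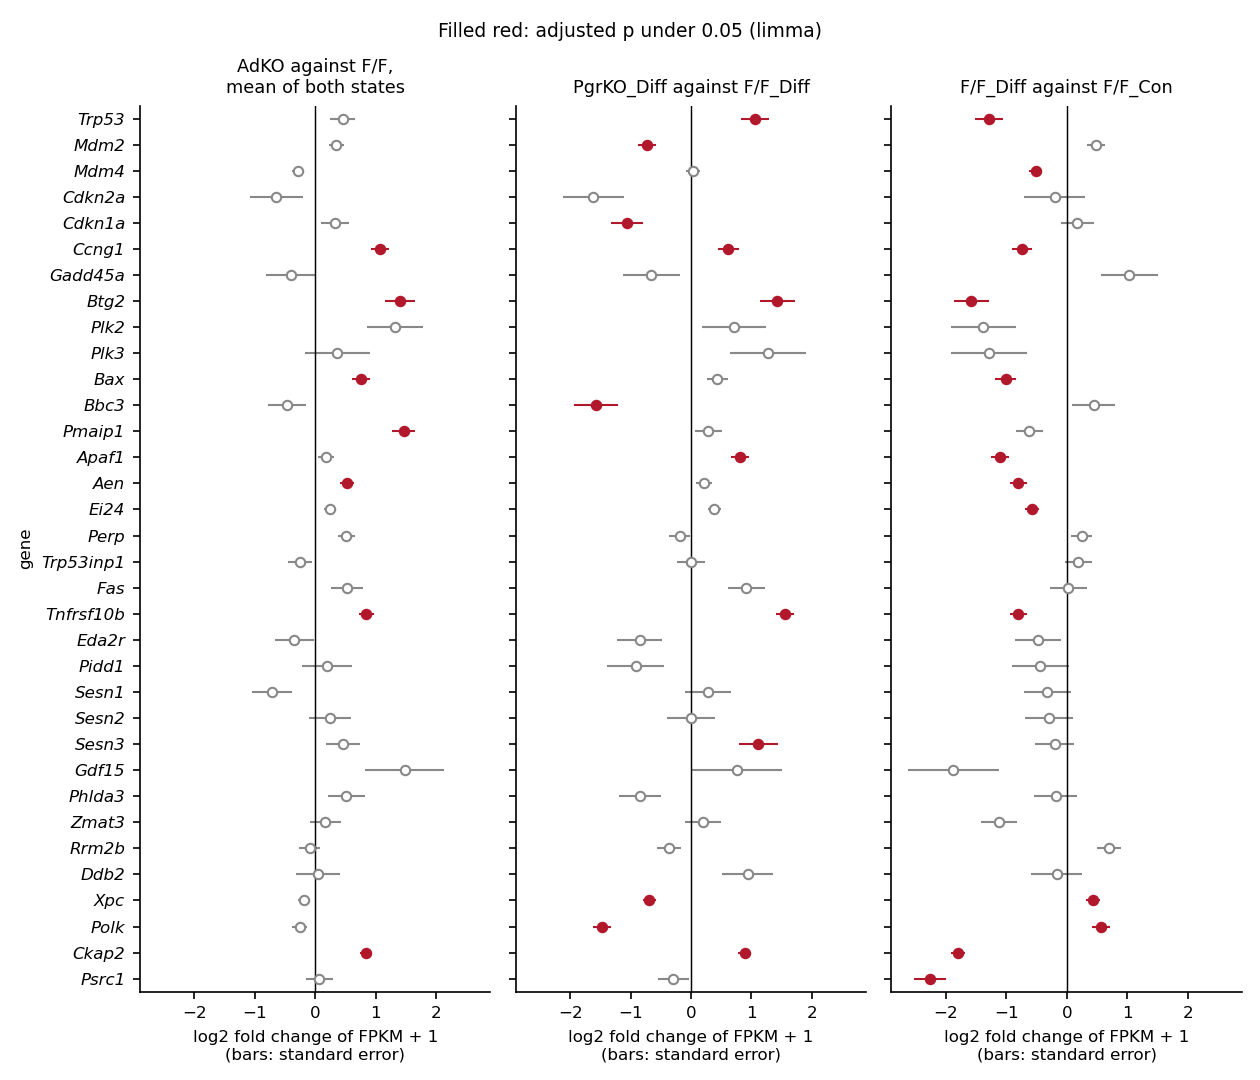
Log2 fold change of FPKM + 1 with its standard error (bars) for the 34 genes in AdKO against F/F over both states, PgrKO_Diff against F/F_Diff, and F/F_Diff against F/F_Con, filled red where the limma adjusted p is under 0.05. In AdKO the 7 genes that passed are to the right of 0, and in F/F_Diff 11 of the 13 that passed are to the left. F/F_Diff libraries enter all 3 comparisons.

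Many of these genes were lower in F/F organoids after differentiation. In F/F_Diff against F/F_Con 11 of the 34 genes fell (32.4%) and 2 rose (5.88%), while 6.89% of all tested genes fell and 12.4% rose (19.3% in either direction). The median log2 fold change was −0.46 over the 34 genes and −0.02 over all tested genes. Trp53, Mdm4, Ccng1, Btg2, Bax, Apaf1, Aen, Ei24, Tnfrsf10b, Ckap2 and Psrc1 fell, and Xpc and Polk rose. Of the genes that passed, the spindle genes had the largest falls, with Psrc1 at 6.91 and 7.66 FPKM in F/F_Diff against 31.7 and 47.2 FPKM in F/F_Con (log2 fold change −2.26, standard error 0.26, limma adjusted p = 0.00971), and Ckap2 at 2.19 and 2.17 FPKM against 9.92 and 10.2 FPKM (log2 fold change −1.80, standard error 0.11, limma adjusted p = 0.00911). Trp53 was at 18.1 and 11.3 FPKM against 39.1 and 33.8 FPKM (log2 fold change −1.28, standard error 0.23, limma adjusted p = 0.0178). All 3 were without overlap.

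Among the apoptosis genes, Bax was at 20.9 and 19.3 FPKM in F/F_Diff against 39.5 and 43.7 FPKM in F/F_Con, and fell by 1.01 on the log2 scale (limma adjusted p = 0.0158). Apaf1 had a log2 fold change of −1.10 (limma adjusted p = 0.011), and Aen fell by 0.80 and Ei24 by 0.58. Mdm2 went the other way, at 36.8 and 37.8 FPKM against 25.3 and 27.4 FPKM, but did not pass (log2 fold change 0.48, limma adjusted p = 0.0636). Cdkn1a, at 74.5 and 86.5 FPKM against 60.2 and 83.6 FPKM, overlapped. Gadd45a was at 123 and 102 FPKM against 50.5 and 57.7 FPKM without overlap, but its log2 fold change of 1.04 did not pass (standard error 0.48, limma adjusted p = 0.183). When F/F_Con replicate 2 or F/F_Diff replicate 2 was left out none of the 34 passed, and 6 did when F/F_Con replicate 1 was left out and 7 when F/F_Diff replicate 1 was. Of the 2 genes that rose, Xpc passed under 3 and Polk under 6 of 16 alternatives.

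In PgrKO organoids differentiation changed none of the 34 genes by the test. In PgrKO_Diff against PgrKO_Con 5 of the 34 had an unadjusted p under 0.05 in limma and none passed after adjustment, with voom on recovered reads giving 0 as well. None of the tested genes passed (0%), and 1179 of them had an unadjusted p under 0.05. Same-numbered PgrKO_Con and PgrKO_Diff libraries deviated together (correlation 0.53), and this test did not pair them, so it can miss changes. With the replicate number as a block over all groups the count was also 0. Pmaip1 was at 11.6 and 17.0 FPKM in PgrKO_Diff against 27.0 and 29.4 FPKM in PgrKO_Con (log2 fold change −0.96, limma adjusted p = 0.486), and Bax at 27.3 and 27.7 FPKM against 31.7 and 44.3 FPKM. The PgrKO response minus the F/F response passed for 2 of the 34 genes, both positive, while 0.499% of all tested genes passed in that direction and 3.91% in the other (4.41% in all). They were Ckap2, with a difference of 1.16 (standard error 0.16, limma adjusted p = 0.0428), and Tnfrsf10b, with 1.08 (standard error 0.20, limma adjusted p = 0.0464). Neither passed when any 1 library was left out.

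Other genes of the pathway were taken from lists written from general knowledge, with earlier results of these data known. Of 28 other p53 targets, 24 were tested, and 5 rose (20.8%) and 2 fell (8.33%) in AdKO against F/F over both states, where 4.59% of all tested genes rose and 5.92% fell. Lif, a cytokine that p53 regulates in the mouse uterus, was at 22.6 and 34.6 FPKM in AdKO_Diff and AdKO_Con, against 4.07 and 2.18 FPKM in F/F_Diff and 12.4 and 10.9 FPKM in F/F_Con (log2 fold change 2.03, standard error 0.21, limma adjusted p = 0.0178). Igfbp3, which binds insulin-like growth factors, was at 74.5 and 44.6 FPKM against 8.13 to 13.7 FPKM in F/F (log2 fold change 2.34, limma adjusted p = 0.0243). Thbs1, an inhibitor of angiogenesis, rose by 1.55 (limma adjusted p = 0.0321). Dram1, a lysosomal protein of autophagy, fell, at 8.84 and 28.1 FPKM in AdKO_Diff and AdKO_Con against 13.3 and 11.4 FPKM in F/F_Diff and 70.3 and 94.9 FPKM in F/F_Con (log2 fold change −0.97, limma adjusted p = 0.034). In PgrKO_Diff against F/F_Diff 5 of the 24 rose (20.8%) and 2 fell (8.33%), where 11.7% of all tested genes rose and 15.4% fell, led by Lif (log2 fold change 1.97, limma adjusted p = 0.00416) and Ak1 (log2 fold change −2.71, limma adjusted p = 0.00969). Lif and Igfbp3 rose in this comparison as well, which shares the F/F_Diff libraries with the one above. Without any 1 of the 4 F/F libraries the AdKO counts fell to 0, except that 1 gene rose without F/F_Diff replicate 1. In PgrKO_Diff against F/F_Diff 1 rose and 2 fell without F/F_Diff replicate 1, and 1 rose and 1 fell without F/F_Diff replicate 2.

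The 15 kinases and modifiers that act on p53 include Atm, Chek1 and Chek2 of the DNA damage response. None of the 15 passed in AdKO against F/F over both states (limma). An unadjusted p under 0.05 was found for 3 of the 15 and for 4882 of the 15817 tested genes, so this share was not above the background. The median log2 fold change of the 15 was 0.06. In PgrKO_Diff against F/F_Diff 2 of the 15 fell (13.3%), where 15.4% of all tested genes fell, so the share was near the background. Atr, a kinase that senses stalled replication, was at 1.40 and 1.66 FPKM in PgrKO_Diff against 3.20 and 3.95 FPKM in F/F_Diff (log2 fold change −0.85, limma adjusted p = 0.013). Trp53bp1, a double-strand break protein, fell by 0.67 there (limma adjusted p = 0.0159). Neither passed without F/F_Diff replicate 2 or without both PgrKO replicate 2 libraries, and 1 gene of this list fell without PgrKO_Diff replicate 1.

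Proliferation genes that p53 is known to lower through p21 and the DREAM repressor complex were not lower in AdKO organoids. Of 14, 3 rose (21.4%, against 4.59% of all tested genes) and none fell in AdKO against F/F over both states, and the median log2 fold change was 0.45. Mki67, a marker of cycling cells, was at 6.49 FPKM in AdKO_Diff and 16.1 FPKM in AdKO_Con, against 0.863 and 1.27 FPKM in F/F_Diff and 10.7 and 7.40 FPKM in F/F_Con (log2 fold change 1.33, standard error 0.19, limma adjusted p = 0.0256). Foxm1, a transcription factor of mitotic genes, and Mcm5, a replication helicase subunit, rose by 0.82 and 1.91. In F/F_Diff against F/F_Con 9 of the 14 fell (64.3%, against 6.89% of all tested genes), with Mki67 at a log2 fold change of −2.27 (limma adjusted p = 0.0094), and in PgrKO_Diff against F/F_Diff 6 rose (42.9%, against 11.7%). Without any 1 of the 4 F/F libraries none of the 14 passed in AdKO against F/F. In F/F_Diff against F/F_Con 4 fell when replicate 1 of F/F_Con or of F/F_Diff was left out, and 0 when replicate 2 of either was. In PgrKO_Diff against F/F_Diff 2 to 7 rose with 1 library left out. Mki67, Ckap2 and Psrc1 shared a low level in F/F_Diff. The part of the share of cycling cells in the levels of the 34 genes was not tested.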

How the data were processed

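RNA from 10 organoid libraries was sequenced by the authors, and the deposited table gives 1 FPKM value per gene and library. Per the submitters' notes the authors used HISAT2, edgeR and mm10, with versions not given in the sources used here, while the study's methods name Tophat2 and RPKM. All sample columns of the table were used. Symbols were matched to GENCODE M21 (54041 of 54152 lines). FPKM multiplied by exon length gave whole reads within 0.01 read for over 99.99% of values, 11744271 to 17330672 per library. Values were taken as log2(FPKM + 1), which understates changes of low genes, and 15817 genes whose mean reached 1 FPKM in any group were kept. The 9 comparisons came from 1 limma 3.58.1 fit with a variance trend (R 4.3.3), 2-sided, with Benjamini-Hochberg adjustment over all genes kept and a threshold of 0.05. The 34 genes, the lists and the tests were chosen with earlier results of these data known. All 34 genes are named, with Cdc42 and, of each other list and comparison, up to 4 genes with the smallest p among those that passed. Alternatives were a pseudocount of 0.1, no filter, a mean of at least 5 FPKM, quantile normalization, median scaling, voom on recovered reads, a replicate block, only the groups compared, and leaving out single F/F and PgrKO libraries. Leaving out replicate 2 of PgrKO_Con and of PgrKO_Diff together was chosen after seeing the data. Figures were drawn with matplotlib 3.10.9, and tables were made with numpy 2.4.6 and pandas 2.3.3 under Python 3.11.15. Whole-oviduct data were not used here.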

Additional observations from a re-analysis of the deposited data

Results flagged for a closer look

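The following 4 genes had effects that differed between groups by a test of the difference itself. The response to differentiation differed between PgrKO and F/F organoids for Ckap2, by 1.16 on the log2 scale. It was at 5.06 and 4.73 FPKM in PgrKO_Diff against 8.28 and 8.09 FPKM in PgrKO_Con, and at 2.19 and 2.17 FPKM in F/F_Diff against 9.92 and 10.2 FPKM in F/F_Con. The response of Tnfrsf10b differed by 1.08, with 15.7 and 15.97 FPKM in PgrKO_Diff against 12.2 and 13.7 FPKM in PgrKO_Con, and 5.12 and 4.35 FPKM in F/F_Diff against 8.17 and 9.86 FPKM in F/F_Con. Mdm2 was higher in AdKO than in PgrKO organoids by 0.75 over both states, and Polk by 0.88. When 1 F/F or PgrKO library was left out, Ckap2, Tnfrsf10b and Mdm2 did not pass in any fit. Polk passed only without a PgrKO_Diff library. Against F/F organoids the log2 fold change of Polk was −0.26 in AdKO over both states, which did not pass, −1.47 in PgrKO_Diff, which passed, and −0.81 in PgrKO_Con, which did not.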

How the results depend on the processing

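Counts are of the 34 genes that passed, in either direction. AdKO against F/F over both states (7) fell to 0 with the replicate block. AdKO_Diff against F/F_Diff (7) fell to 1 with a pseudocount of 0.1, and to 0 with voom, with the block and with only the groups compared. AdKO against PgrKO (2) gave 3 with a pseudocount of 0.1 and with quantile normalization, 5 with no filter, 1 with a mean of at least 5 FPKM, 4 with median scaling, and 0 with voom, with the block, with only the groups compared and without both PgrKO replicate 2 libraries. PgrKO_Con against F/F_Con (1) fell to 0 with a pseudocount of 0.1, no filter, the block, only the groups compared and without both PgrKO replicate 2 libraries. PgrKO_Diff against F/F_Diff (12) gave 8 with no filter, 6 with only the groups compared and 8 without both PgrKO replicate 2 libraries. The difference between responses (2) gave 0 with a pseudocount of 0.1, voom, the block and without both PgrKO replicate 2 libraries, 1 with no filter, and 3 with a mean of at least 5 FPKM, quantile normalization and only the groups compared. With 1 library left out, the counts ran from 0 to 6 for AdKO against F/F, 0 to 5 for AdKO_Diff against F/F_Diff, 0 to 3 for AdKO against PgrKO, 0 to 0 for PgrKO_Con against F/F_Con, 4 to 10 for PgrKO_Diff against F/F_Diff, 0 to 13 for F/F_Diff against F/F_Con and 0 to 0 for the difference between responses. No gene that passed changed direction under any alternative. Fits with 1 library left out have 3 residual degrees of freedom in place of 4, and the library that stays in the group is assumed to vary like the other groups. The causes of the other changes were not tested.

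With the replicate number as a block 13 genes passed in F/F_Diff against F/F_Con, of which 11 were among those without the block and none rose, so that Xpc and Polk were lost. In PgrKO_Diff against F/F_Diff 12 passed, 11 of them shared. Deviations of same-numbered libraries correlated at −0.17 to −0.04 between 5 pairs of groups and at 0.53 between PgrKO_Con and PgrKO_Diff. The main fit did not pair libraries by number. A difference shared by same-numbered PgrKO libraries therefore stayed in its error.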

Other observations

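The 9 genes of the ATF4 stress response, which is a separate route to some p53 targets such as the sestrins, had a median log2 fold change of −1.01 in AdKO against F/F over both states, with 1 of the 9 above 0. By the test 1 gene rose and 1 fell. Atf3, a stress-induced transcription factor, was at 33.0 FPKM in AdKO_Diff and 47.3 FPKM in AdKO_Con, against 17.9 and 10.96 FPKM in F/F_Diff and 5.63 and 8.91 FPKM in F/F_Con (log2 fold change 1.88, standard error 0.33, limma adjusted p = 0.0309). Vldlr, a lipoprotein receptor, was at 7.56 and 4.76 FPKM in AdKO_Diff and AdKO_Con, against 12.2 to 23.1 FPKM in F/F libraries (log2 fold change −1.38, limma adjusted p = 0.0484). Without any 1 of the 4 F/F libraries neither gene passed, and without any 1 PgrKO library 1 gene of the list rose and none fell. Of the 28 other p53 targets, Steap3, Gls2 and Trp53cor1 were under the filter, at 1.14 FPKM or less in every library, and Sco2 was listed at 0 in all 10 libraries.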
